A study of Mus musculus with 32 samples.

Results

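Cortical excitatory neurons are the glutamate-releasing cells of the cortical sheet that covers the striatum, and their transcripts can enter a striatal sample with cortical tissue at the edge of the dissection. The 9 genes described here, Neurod2, Neurod6, Slc17a7, Tbr1, Lmo4, Lamp5, Mef2c, Nptx1 and Nrn1, were taken by name from a list of cortical excitatory neuron genes, out of 55415 features counted. All 9 had counts, and 8 passed the filter on low counts that left 10679 genes for testing. Neurod6 did not pass and was fitted only without that filter.

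Striatal projection neurons release GABA and make little of the vesicular glutamate transporter or of the cortical lineage factors, while the cortical axons that reach the striatum keep most of their messenger RNA in the cortex. Neurod2, Neurod6, Tbr1 and Slc17a7 are therefore commonly read as marks of cortical excitatory cell bodies. Lmo4, Lamp5 and Mef2c are also made by other neurons, and Mef2c by microglia, so their levels in striatum need not follow cortical tissue.

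The samples were striata of mice 12 months old, 8 in each of 4 groups. Wild-type littermates received artificial cerebrospinal fluid (aCSF), and YAC128 mice received aCSF, the antisense oligonucleotide AON12.1 or a scrambled oligonucleotide. YAC128 mice carry a yeast artificial chromosome with an expanded human HTT gene on a B6 background, and AON12.1 was designed to remove the caspase-6 cleavage site of huntingtin. Treatment went into the lateral ventricle as 10 µL, with 500 µg of oligonucleotide in the treated groups, from about 6 months of age and again 2 and 4 weeks later. The cannula and anaesthesia were shared by all 4 groups, so no group is an uninjected baseline. The tissue is bulk striatum, in which fewer cells of a type and less RNA per cell cannot be told apart.

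The 32 libraries held 658934 to 1419313 counts in genes, with a median of 936829. The sample numbers in the library titles fall into a series beginning 18 (11 libraries, 3 WT aCSF, 4 YAC128 aCSF, 2 AON12.1 and 2 scrambled) and one beginning 19 (21 libraries), and the labels do not say what this numbering marks. The share of reads in no annotated feature ran from 16.3% to 33.7%, with group means of 19.5% in WT aCSF, 25.7% in YAC128 mice on aCSF, and 23.8% and 22.1% after AON12.1 and the scrambled oligonucleotide. Striatal projection neuron markers were present in every library, with a summed level over 18 genes of 3764 to 12679 CPM. CPM are counts in the gene per 1000000 counts in the genes that passed the filter, with that total scaled by a TMM normalization factor. In 4 libraries the markers of another brain region stood highest: WT aCSF replicate 1 (thalamus, 510 CPM summed over 8 genes), WT aCSF replicate 4 and YAC128 aCSF replicate 2 (hypothalamus and septum, 1817 and 2676 CPM) and YAC128 aCSF replicate 4 (choroid plexus, 3929 CPM). They are not the only libraries with such markers: the hypothalamus and septum sum was 1717 CPM in WT aCSF replicate 7 and 1134 CPM in YAC128 aCSF replicate 5, against a median of 170 CPM over the 32 libraries. Results without the 4, and without these 6, are alternatives chosen after seeing the data. All 6 are aCSF libraries, so these fits take libraries from the aCSF groups only. Libraries that were kept also had high hypothalamus and septum sums. Among them were scrambled replicate 7 (895 CPM), WT aCSF replicate 5 (749 CPM) and AON12.1 replicates 7 and 6 (739 and 674 CPM). No 2 libraries were identical, and the library titles carry different sample numbers; the labels do not say more of how replicates relate, so p-values measure the spread between these samples.

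Sequences upstream of the start are shown for 3 of the genes, Neurod2 and Neurod6 because they encode basic helix-loop-helix factors that bind E-boxes, the 6-base motif CANNTG, and Slc17a7 because the other genes are set against it below. RefSeq promoter entries were found for 7 of the 9 genes, on build GRCm38.p6, while the counts were made on GRCm39. Each sequence gives the 250 bases before the start in RefSeq, 5′ to 3′ on the gene's strand, with matches to CANNTG in capitals. Neurod2 lies on the minus strand at chr11:98329646-98329895, Neurod6 on the minus strand at chr6:55681264-55681513 and Slc17a7 on the plus strand at chr7:45163671-45163920. For Slc17a7 a GENCODE M21 transcript begins 28 bases after the RefSeq start, so the stretch shown ends that much farther upstream of it.
Neurod2: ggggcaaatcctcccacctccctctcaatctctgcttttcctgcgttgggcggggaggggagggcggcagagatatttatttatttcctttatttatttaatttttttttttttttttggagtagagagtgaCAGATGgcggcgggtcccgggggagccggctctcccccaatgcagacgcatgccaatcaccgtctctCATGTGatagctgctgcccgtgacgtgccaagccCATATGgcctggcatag
Neurod6: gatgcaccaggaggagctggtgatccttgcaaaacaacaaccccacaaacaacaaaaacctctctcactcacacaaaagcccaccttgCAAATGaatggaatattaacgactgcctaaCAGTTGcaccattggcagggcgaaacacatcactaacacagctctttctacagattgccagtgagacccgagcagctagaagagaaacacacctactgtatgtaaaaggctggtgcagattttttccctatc
Slc17a7: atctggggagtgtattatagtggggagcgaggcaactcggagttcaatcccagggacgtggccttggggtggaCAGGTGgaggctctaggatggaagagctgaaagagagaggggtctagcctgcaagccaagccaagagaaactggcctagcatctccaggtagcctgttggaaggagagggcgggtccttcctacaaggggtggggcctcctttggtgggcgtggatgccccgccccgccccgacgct
Neurod2 held 3 matches, Neurod6 2 and Slc17a7 1. CANNTG reads the same on both strands, and 66.2% of the 32851 promoter entries of this length held at least 1, with a median of 1. The form CAGATG, searched on both strands and itself a CANNTG, occurred in the Neurod2 sequence, 118 bases before the start, and in 14.4% of all entries. A match is a match of letters only.

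The cortical lineage factors spread widely among the libraries of each group. Neurod2, a transcription factor of cortical excitatory neurons, ran from 4.71 through a median of 29.3 to 90.1 CPM in WT aCSF and from 4.25 through 15.1 to 126 in YAC128 aCSF. It ran from 6.90 through 39.7 to 93.3 CPM after AON12.1 and from 15.3 through 52.1 to 297 after the scrambled oligonucleotide. All 4 ranges overlapped, and the highest library of the series, scrambled replicate 5, had 70.04 times the Neurod2 level of the lowest, YAC128 aCSF replicate 3. The CPM here are scaled by TMM factors, and 4 to 238 reads stood behind each Neurod2 value.

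Tbr1, the T-box factor of early-born deep-layer cortical neurons, ran from 0.900 through 7.73 to 19.7 CPM in WT aCSF and from 0 through 5.78 to 21.6 in YAC128 aCSF. In AON12.1 it ran from 0.986 through 12.8 to 19.99 CPM, and in scrambled from 2.1 through 11.7 to 52.5. The single 0 was YAC128 aCSF replicate 3, where a count of 0 allows up to 3 reads or 2.55 CPM, so that scrambled replicate 5 was at least 20.6-fold higher. The next highest library had 21.6 CPM.

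Neurod6, a relative of Neurod2, had the fewest reads of the 9, with 175 over all libraries and at most 21 in one. Its median was 2.74 CPM in WT aCSF and 2.44 in YAC128 aCSF, and 5.42 and 9.51 CPM after AON12.1 and the scrambled oligonucleotide. WT aCSF replicates 1 and 5 had 0 reads, and scrambled replicate 5 the most, 26.2 CPM, followed by scrambled replicate 4 with 14.8. At such counts, single libraries were read to within a few reads only.

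Slc17a7 encodes VGLUT1, the transporter that loads glutamate into the synaptic vesicles of cortical neurons. It ran from 21.6 through 120.4 to 299.9 CPM in WT aCSF and from 8.22 through 35.8 to 321 in YAC128 aCSF. The range was 9.86 through 105 to 355 CPM after AON12.1 and 50.03 through 174 to 689 after the scrambled oligonucleotide. The highest library had 83.8 times the level of the lowest. In YAC128 aCSF, 5 of 8 libraries lay at or under 39.1 CPM and the other 3 at 150.6 CPM or more, and those 3 overlapped all other groups.

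Nrn1 and Nptx1 encode proteins secreted at or anchored to synapses and neurites, neuritin and neuronal pentraxin 1. Nrn1 had medians of 23.3, 22.8, 23.6 and 35.1 CPM in WT aCSF, YAC128 aCSF, AON12.1 and scrambled, and a span of 4.93 to 97.5 CPM over the 32 libraries. Nptx1 had medians of 45.9, 35.7, 48.4 and 49.2 CPM in the same order, and a span of 20.7 to 109 CPM. For both, AON12.1 replicate 4 was the lowest library and scrambled replicate 5 the highest.

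Mef2c, Lamp5 and Lmo4 varied least. Mef2c, a MADS-box transcription factor, had medians of 144, 124, 157 and 183 CPM in the same order and spanned 80.1 to 305 CPM, a ratio of 3.81. Lamp5, a membrane protein of the LAMP family, spanned 58.7 to 154 CPM with medians of 118, 107, 128.5 and 115, and was the only member whose highest library, AON12.1 replicate 2, was not scrambled replicate 5. Lmo4, a LIM-domain transcriptional adaptor, spanned 288 to 614 CPM with medians of 419, 375, 473 and 430.

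**Figure D1:**
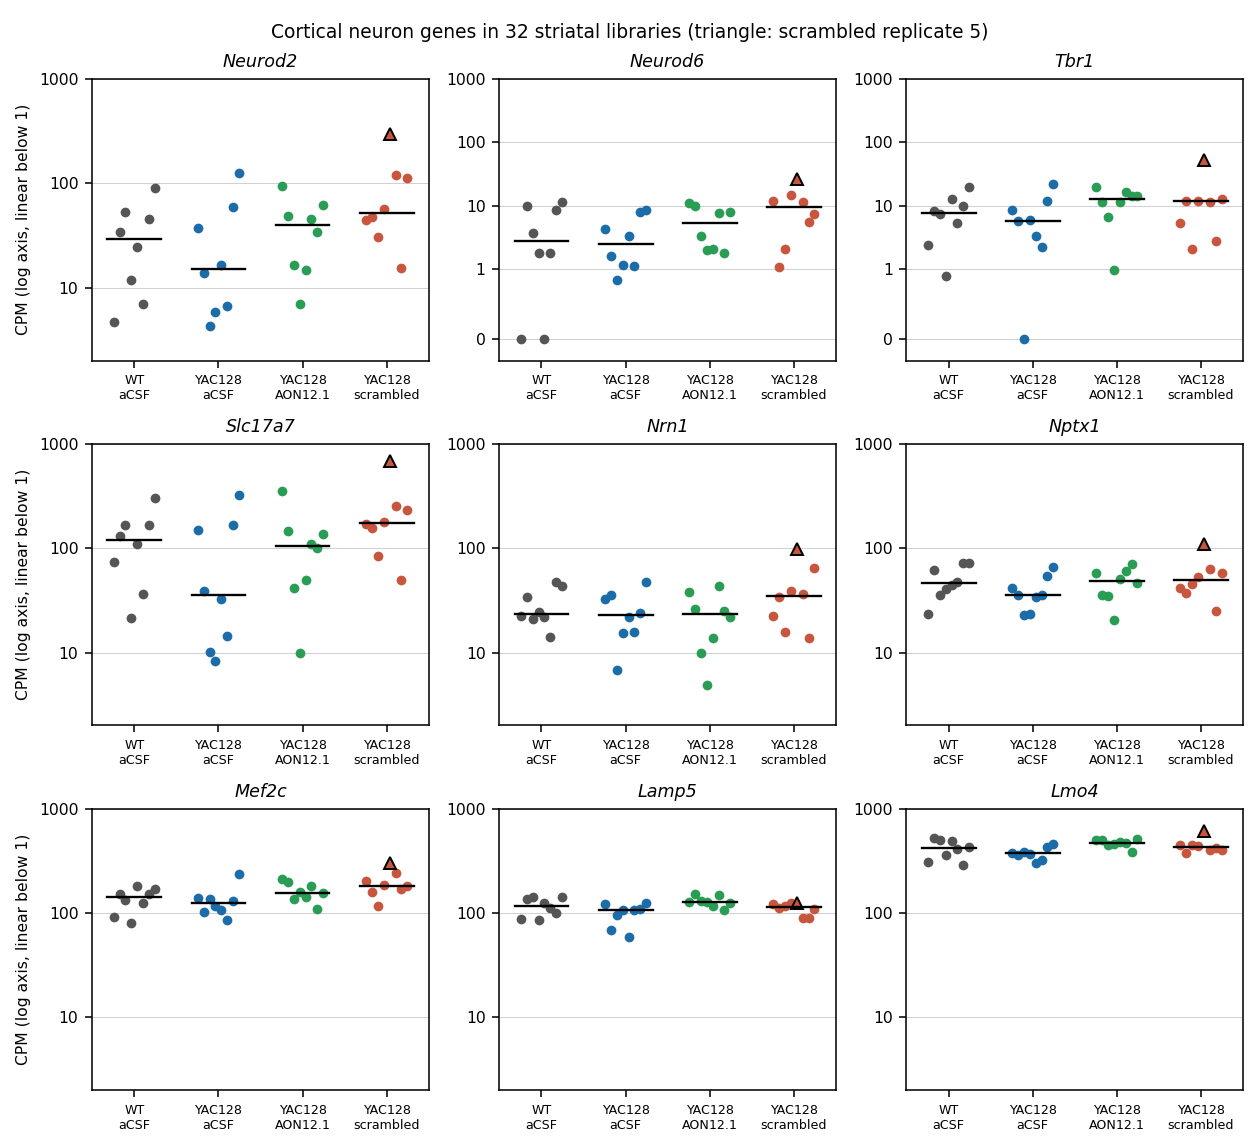
CPM of the 9 genes in 32 libraries, 1 point per library, by group, with the group median as a bar; the axis is logarithmic and linear below 1. Scrambled replicate 5, the triangle, is highest in 8 of the 9 panels, and the 4 groups overlap in every panel.

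The spread within groups placed the members in different parts of the transcriptome. Measured as the SD of log2 CPM within groups, it was 1.45 for Slc17a7, 1.33 for Neurod2, 1.02 for Tbr1 and 0.80 for Nrn1, against a median of 0.31 over all tested genes. Slc17a7 thus stood at percentile 99.9 of the 10679 tested genes, Neurod2 at 99.8, Tbr1 at 99.3 and Nrn1 at 98.7. Nptx1 followed at percentile 93.95 with an SD of 0.54 and Mef2c at 74.04 with 0.39. Lamp5 (0.27, percentile 39.3) and Lmo4 (0.23, percentile 22.9) varied less than the median gene. The percentiles were not matched for read depth, and counting error widens the spread of genes with few reads. Median reads per library were 98 for Slc17a7, 29.5 for Neurod2, 7 for Tbr1, 109 for Lamp5 and 423 for Lmo4.

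Scrambled replicate 5 was picked out because its member values were mostly the highest, so its rank among the members is no separate result. Its members summed to 2314 CPM, against a median of 926 over the 32 libraries, and it was the highest of 32 libraries for 8 of 9 members and for 10 of 20 other cortical excitatory genes. Of 18 striatal projection neuron genes it was the lowest for 11. How often it was the highest or lowest library over all tested genes was not counted. Penk, the enkephalin precursor of indirect-pathway neurons, had 1340 CPM there against 1510 to 5694 CPM in the other 31 libraries. Isl1, a factor of direct-pathway neurons, had 7.50 CPM there against 20.8 to 45.3, and Six3, a striatal lineage factor, 205 against 342 to 666. Its no-feature share was 21.9%. Its sums for oligodendrocyte, astrocyte, microglia and endothelial genes ranked 22, 28, 18 and 23 of 32 from the highest. Its interneuron sum ranked 2, and its choroid plexus, thalamus, and hypothalamus and septum sums ranked 15, 29 and 31.

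The next question was which genes rose and fell with the members from library to library, apart from the groups. In a fit of all genes with 1 coefficient per group and the log2 CPM of Slc17a7 as a covariate, 509 of 10678 genes were called (Benjamini-Hochberg adjusted p under 0.05 in edgeR's quasi-likelihood test), which is 4.77%, with 309 rising (2.89%) and 200 falling (1.87%). Of the 7 other members tested, 5 rose with Slc17a7 and 0 fell. The slope, in log2 units per doubling of Slc17a7, was 0.998 ± 0.0515 (SE) for Neurod2 (adjusted p = 1.62e-17), the smallest p of all genes, with a 95% interval of 0.89 to 1.10, where 1 is a change in proportion. Tbr1 had a slope of 0.78 ± 0.09 (adjusted p = 5.09e-08) and Nrn1 one of 0.46 ± 0.06 (adjusted p = 5.28e-06). Nptx1 had 0.29 ± 0.04 (adjusted p = 3.25e-05) and Mef2c 0.18 ± 0.04 (adjusted p = 0.00177).

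Lamp5 and Lmo4 did not pass, with slopes of 0.07 ± 0.03 (adjusted p = 0.172) and 0.06 ± 0.03 (adjusted p = 0.163), and 95% confidence intervals of 0.01 to 0.14 and 0.01 to 0.12. Neurod6, fitted without the filter on low counts, had a slope of 0.71 ± 0.11 (adjusted p = 1.49e-05). The 5 calls among the members also stood in each of the 32 fits that left out 1 library and in the fits without the 4 and without the 6 libraries with other regions' markers. Adding the no-feature share to the fit took the count over all genes from 509 to 83 (0.777%) and left 4 members called, Mef2c having adjusted p = 0.0854 there. The count over all genes was 185 without YAC128 aCSF replicate 8, 292 without AON12.1 replicate 4 and 297 without AON12.1 replicate 1. WT aCSF replicate 1, the library with the highest thalamus sum, had Slc17a7 at 74.2 CPM with Neurod2 at 4.71, while the libraries on either side in Slc17a7, at 50.03 and 84.2 CPM, had Neurod2 at 15.3 and 30.5.

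**Figure D2:**
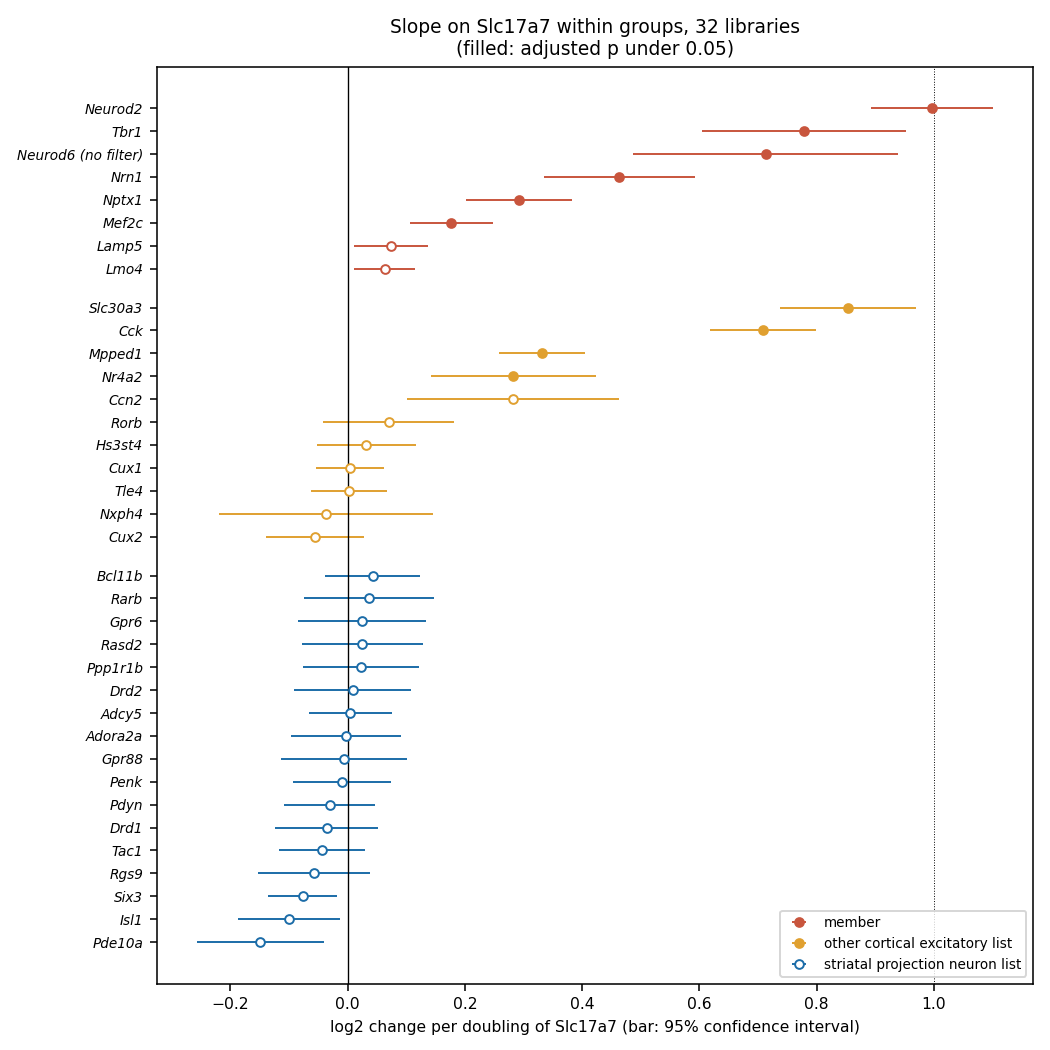
Slope of each gene on Slc17a7, as log2 change per doubling, with 95% confidence intervals, for members and 2 other lists; filled points have adjusted p under 0.05. Neurod2 lies on the dotted line at 1, Lamp5 and Lmo4 lie near 0, and the 17 striatal projection neuron genes lie around 0.

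The other cortical excitatory genes were divided. Of 20 listed, 11 were tested, 4 rose with Slc17a7, 0 fell, and the median slope was 0.07, against -0.00023 over all genes. Slc30a3, the zinc transporter of glutamatergic vesicles, had a slope of 0.85 ± 0.06 (adjusted p = 4.72e-14), and Cck, the cholecystokinin precursor, one of 0.71 ± 0.04 (adjusted p = 9.66e-15). Mpped1 had 0.33 and the orphan nuclear receptor Nr4a2 0.28 (adjusted p = 0.0129). Cux1, Cux2, Tle4 and Hs3st4, which are used as layer markers, had slopes between -0.06 and 0.03 and were not called. The 9 other listed genes were too scarce for the filter. Without it 7 of them were called, among them Emx1 with a slope of 0.77 and Dkkl1 with 0.84. That fit held 25434 genes and called 634 of them.

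Striatal projection neuron genes were not called as following Slc17a7. Of 17 tested, 0 were called in edgeR and 0 in voom. In edgeR 3 had an unadjusted p under 0.05 (Pde10a, Six3 and Isl1), as did 2026 of all 10678 genes. The slopes ran from -0.15 (Pde10a, adjusted p = 0.102) to 0.04 (Bcl11b), and the median was -0.0067. Ppp1r1b, which encodes DARPP-32, had 0.02 ± 0.05 and Drd1, the D1 dopamine receptor, -0.04 ± 0.04. Of 8 interneuron genes 2 rose slightly, Sst, the somatostatin precursor, with 0.10 ± 0.02 (adjusted p = 0.00371) and Npy, neuropeptide Y, with 0.14 ± 0.03 (adjusted p = 0.0170). Both are made by interneurons of cortex and striatum alike.

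Glial and vascular genes gave 0 calls in edgeR and 0 in voom. Csf1r, the receptor for colony-stimulating factor of microglia, was the 1 of them with an unadjusted p under 0.05, against 2026 of all 10678 genes. The lists held 10 oligodendrocyte, 8 astrocyte, 8 microglia and 7 endothelial genes that were tested, with median slopes of -0.03, -0.0044, 0.04 and -0.02. Of 3 choroid plexus genes, 2 fell, Ttr, transthyretin, with -0.83 ± 0.20 (adjusted p = 0.00866) and Clic6 with -0.24 (adjusted p = 0.00734). Without the 4 libraries named above, 1 of the 3 was called. YAC128 aCSF replicate 4, with the highest choroid plexus sum, also had the lowest Slc17a7, 8.22 CPM. Thalamus and hypothalamus genes gave 0 calls of 4 and 5 in edgeR and 0 in voom, 1 of each (Tcf7l2 and Gal) having an unadjusted p under 0.05, with median slopes of -0.15 and -0.29.

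**Figure D3:**
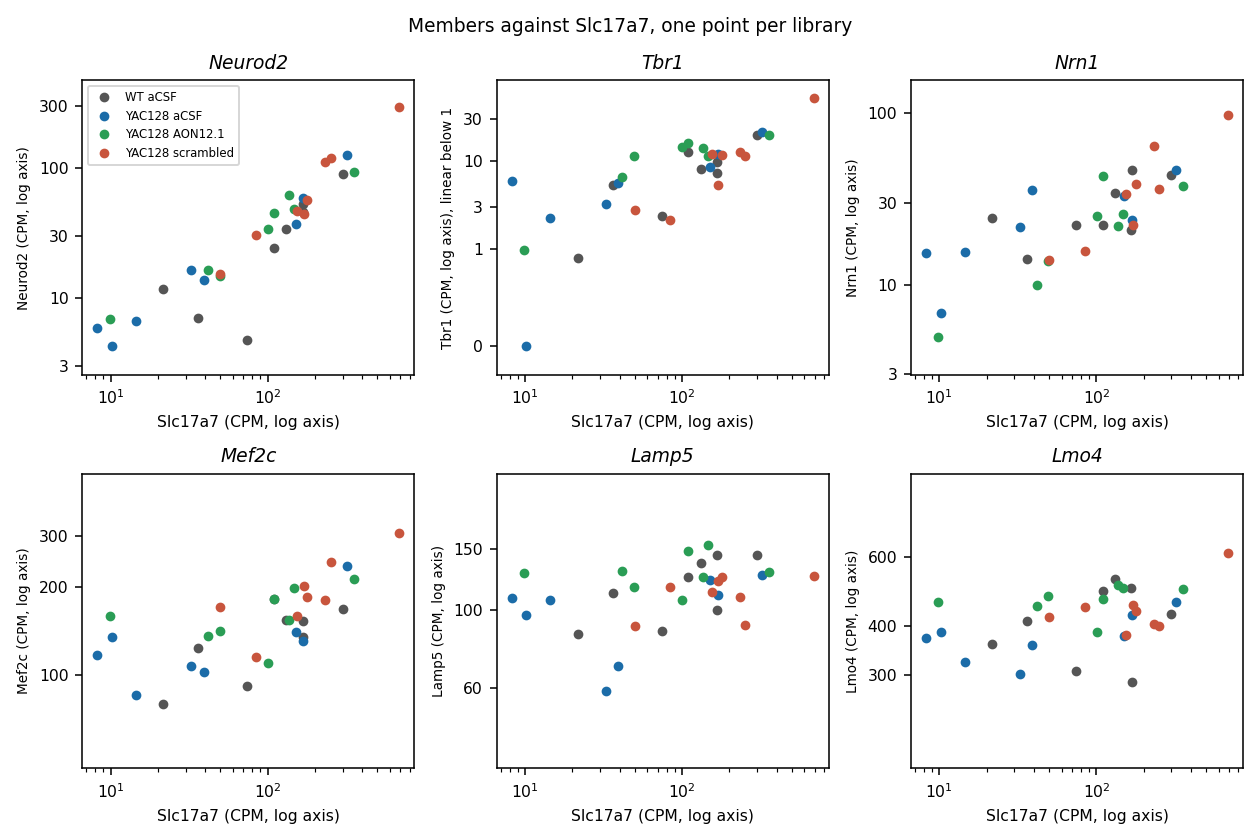
CPM of 6 members against Slc17a7 on log axes, 1 point per library, coloured by group. Neurod2 rises along a line over the range from 8.22 to 689 CPM of Slc17a7, with WT aCSF replicate 1 (4.71 CPM) below it, Mef2c rises weakly, and Lamp5 and Lmo4 stay nearly level.

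Correlations between members were computed for all pairs. On log2 CPM with group means removed, 31 of 36 pairs were correlated over the 32 libraries (permutation test within groups, two-sided, Benjamini-Hochberg adjusted over 36 pairs). Neurod2 and Slc17a7 had Pearson's r of 0.93 (Spearman's rho 0.94), with adjusted p = 3.6e-05, as small as the permutations could give for r, and r of 0.92 without the 2 libraries farthest from the median in Neurod2. Within the number series beginning 18 r was 0.84 (permutation p = 0.00699) and within that beginning 19 it was 0.97 (permutation p = 1e-05, the smallest possible). Neurod2 and Tbr1 had r of 0.86, Slc17a7 and Tbr1 0.85, and Tbr1 and Nrn1 0.83.

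Lmo4 and Lamp5 went with each other (r = 0.67) more than with the lineage factors. Their r with Neurod2 was 0.45 and 0.42, and fell to 0.29 and 0.34 without the 2 libraries farthest in Neurod2. Lmo4 and Nrn1 (r = 0.15, permutation adjusted p = 0.379) and Lamp5 and Nrn1 (r = 0.17, permutation adjusted p = 0.369) were not called, nor were Lmo4 and Nptx1, Lamp5 and Nptx1, and Slc17a7 and Lamp5 (permutation adjusted p = 0.0552). Mef2c stood between, with r of 0.65 to Slc17a7 and 0.60 to Lmo4. The difference between these correlations was not tested. Without scrambled replicate 5, 23 of 36 pairs were called, 22 without the 4 libraries with other regions' markers and 29 without the 6. With the no-feature share removed, 21 were called, and within the series beginning 18 alone 0 were. The share of called pairs among all genes was not computed.

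**Figure D4:**
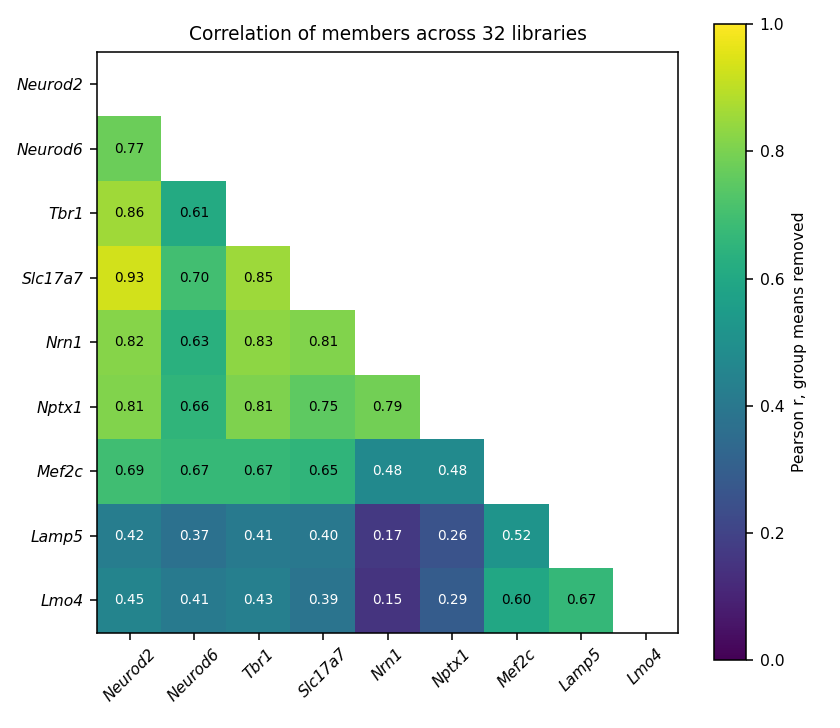
Pearson's r between members over 32 libraries, on log2 CPM with group means removed. Values run from 0.93 for Neurod2 and Slc17a7 down to 0.15 for Lmo4 and Nrn1.

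The share of reads outside annotated features moved with many genes, members among them, and total counts were not seen to. Over all tested genes 13.3% were correlated with the no-feature share, 4.77% negatively (permutation test within groups, adjusted over 10679 genes). Of the 8 tested members 4 were, all negatively, with r of -0.64 for Neurod2 (rho -0.60, permutation adjusted p = 0.00243), -0.60 for Slc17a7 (rho -0.59, permutation adjusted p = 0.0148), -0.58 for Tbr1 and -0.55 for Nptx1. Mef2c, Nrn1, Lmo4 and Lamp5 were not called (permutation adjusted p = 0.0525, 0.0643, 0.0883 and 0.412). With adjustment over the 18 relations of members alone, 8 of 9 members passed. Without the 2 libraries farthest from the median in no-feature share these were -0.55 and -0.57. Within the series beginning 18 and 19, r for Neurod2 was -0.80 and -0.50 (permutation p = 0.0209 and 0.0190), and with adjustment over 18 relations 0 were called in either series alone. Total counts were correlated with 0 of 9 members, with r between -0.36 and 0.07. Slopes on Slc17a7 with the no-feature share in the fit were 0.96 for Neurod2, 0.78 for Tbr1, 0.49 for Nrn1 and 0.27 for Nptx1, all 4 still called.

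The genes most like the mean of Neurod2, Neurod6, Slc17a7 and Tbr1, by Pearson's r over the 32 libraries with group means removed, were Olfm1 (0.93), Slc30a3 (0.92), Ccn3 (0.92), Vxn (0.91), Cck (0.90), Mpped1 (0.89), Igsf21 (0.89), Nptxr (0.88), Prss12 (0.86) and Sv2b (0.86). Nptxr encodes the pentraxin receptor and Sv2b a synaptic vesicle protein. The median absolute r of all genes was 0.19 to Neurod2 and 0.18 to Tbr1. Lmo4 and Lamp5 were both most like Rbfox3, the neuronal nuclear protein NeuN, with r of 0.77 and 0.79, and Mef2c was most like Prkce (0.85). Nptx1 was most like Ube2ql1 (0.85) and Nrn1 most like Cck (0.87). These points share libraries, depth and no-feature share.

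Whether the groups differed in these genes was asked in 4 comparisons, of which the 3 that use YAC128 aCSF share its 8 libraries. Voom also called 0 members in each of the 4, and so did DESeq2, which gave an adjusted p for 1 of the 8 in the genotype comparison, 7 in AON12.1 against scrambled and 4 in each of the others. Between YAC128 aCSF and WT aCSF, the comparison of genotype, 0 of 8 tested members were called, and 0 had an unadjusted p under 0.05. Of all genes 0.0749% were called, and 1340 of 10679 had an unadjusted p under 0.05. Slc17a7 averaged 93.1 ± 112 CPM in YAC128 aCSF and 126 ± 89.2 in WT aCSF (SD, n = 8 each). The log2 fold change was -0.40 ± 0.58 (SE, adjusted p = 0.836), with a 95% interval of the ratio from 0.336 to 1.72. Neurod2 averaged 33.6 ± 41.7 and 33.8 ± 28.8 CPM, a log2 fold change of 0.10 ± 0.61 (adjusted p = 0.975). Among tested members 1 of 8 had a log2 fold change above 0, against 49.3% of all genes, and the median was -0.15. Members are correlated across libraries, so in all 4 comparisons their directions are not independent, and counts of direction were not tested. Within the series beginning 18 and 19 the log2 fold change of Neurod2 was -1.12 and 0.69, and that of Slc17a7 -1.38 and 0.15, neither called. With the no-feature share in the fit, Neurod2 had 1.03 and Slc17a7 0.32, again not called. Without YAC128 aCSF replicate 8 Neurod2 had -0.62 and Slc17a7 -1.03, and without WT aCSF replicate 8 Slc17a7 had -0.08. The sign for Neurod2 also turned without WT aCSF replicate 1, 4 or 6 or YAC128 aCSF replicate 7, at -0.05 to -0.08.

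Between the scrambled oligonucleotide and aCSF in YAC128 mice, all 8 tested members had a log2 fold change above 0, against 49.6% of all genes, but 0 were called, where 0.0843% of all genes were. Of the 8, 4 had an unadjusted p under 0.05, as did 1050 of all 10679 genes. These 8 directions are not independent, because 31 of 36 member pairs were correlated across libraries. Neurod2 averaged 90.5 ± 91.4 CPM in scrambled and 33.6 ± 41.7 in aCSF (SD, n = 8 each), and its log2 fold change was 1.39 ± 0.53 (SE, adjusted p = 0.383). Slc17a7 averaged 226 ± 199 against 93.1 ± 112 CPM, with 1.27 ± 0.56 (adjusted p = 0.465) and a 95% interval of the ratio from 1.09 to 5.33. Only 1 scrambled library, replicate 5, lay above all aCSF libraries in Neurod2 and in Slc17a7. Mef2c averaged 195 ± 57.3 against 132 ± 45.7 CPM, with 0.56 ± 0.18 (adjusted p = 0.259), and was called when YAC128 aCSF replicate 8 was left out (0.74, adjusted p = 0.0479), a fit that called 0.243% of all genes.

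The size of these differences moved with single libraries. Without scrambled replicate 5 the log2 fold change was 0.87 for Neurod2, 0.79 for Slc17a7, 0.20 for Tbr1 (0.84 with it) and 0.39 for Nrn1 (0.69 with it). YAC128 aCSF replicate 8, the highest of its group for all 9 members, was also left out, and without it Neurod2 had 2.12 (adjusted p = 0.0784). The median over the 8 members was 0.63, against -0.0019 over all genes, but the 8 values are not independent. With Slc17a7 as a covariate, the median over the other 7 members was 0.03. Slc17a7 is itself a member and is among the 8 but not the 7. Most of the others are correlated with it, so a smaller value was built in and the 2 medians cannot be compared. When the no-feature share was added instead, Neurod2 had 1.18 (adjusted p = 0.394) and Mef2c 0.45. Within the series beginning 18 and 19, Neurod2 had 1.73 and 0.98.

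Between AON12.1 and the scrambled oligonucleotide, the comparison of the designed sequence with its control, 0 of 8 members were called, against 0.14% of all genes. Nrn1 averaged 22.8 ± 13.2 CPM with AON12.1 and 40.3 ± 28.1 with scrambled, a log2 fold change of -0.83 ± 0.35 (adjusted p = 0.611). Of the 8, 2 had a log2 fold change above 0, against 51.8% of all genes. Neurod2 averaged 40.2 ± 28.7 against 90.5 ± 91.4 CPM, with -1.18 ± 0.53 (adjusted p = 0.639), and these were the 2 of 8 with an unadjusted p under 0.05, against 774 of all genes. Without scrambled replicate 5 Neurod2 had -0.66, Slc17a7 -0.46 (-0.94 with it), and Tbr1 0.45 (-0.19 with it). The series disagreed in sign, since Neurod2 had 0.67 within the series beginning 18, with 2 libraries in each group, and -1.81 within that beginning 19. Lamp5 had 0.21 ± 0.13 (adjusted p = 0.765), with 5 of 8 AON12.1 libraries above all scrambled ones.

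Between AON12.1 and aCSF in YAC128 mice, 0 of 8 members were called, against 0.309% of all genes. The 2 members with the least variation came nearest, and they were the 2 of 8 with an unadjusted p under 0.05, against 1234 of all genes. Of the 8, 7 had a positive log2 fold change, against 50% of all genes. Lamp5 averaged 129 ± 15.2 CPM with AON12.1 and 99.7 ± 24.0 with aCSF, a log2 fold change of 0.38 ± 0.13 (adjusted p = 0.210). Lmo4 averaged 469 ± 39.0 and 376 ± 51.7 CPM, with 0.32 ± 0.11 (adjusted p = 0.212). In each, 5 of 8 AON12.1 libraries lay above all aCSF libraries, and with Slc17a7 in the fit the values were 0.32 and 0.27. Without the 6 aCSF libraries with other regions' markers, Lamp5 and Lmo4 had 0.20 and 0.24 (edgeR adjusted p = 0.753 and 0.650). Neurod2 had 0.21 ± 0.58 and Slc17a7 0.33 ± 0.58, with 95% intervals of the ratio from 0.511 to 2.63 and from 0.559 to 2.84. Without the 6 aCSF libraries with other regions' markers named above, Neurod2 and Slc17a7 had -0.25 and -0.17. Without AON12.1 replicate 1 they had -0.09 and -0.16, and without YAC128 aCSF replicate 8 they had 0.93 and 0.97.

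Within the series beginning 18, with 2 AON12.1 and 4 aCSF libraries, 3 members were called between AON12.1 and aCSF, where 2.92% of all genes were: Neurod2 (2.40, adjusted p = 0.0338), Slc17a7 (2.43, adjusted p = 0.0349) and Mef2c (0.75, adjusted p = 0.0419). Within the series beginning 19, with 6 and 4 libraries, 0.0187% of all genes were called, and the same genes had -0.83, -0.86 and 0.07 (adjusted p = 0.829, 0.823 and 0.971). In the first series the 2 AON12.1 libraries had Slc17a7 at 355 and 147 CPM, and the 4 aCSF libraries at 151, 39.1, 10.2 and 8.22. Of those 4 aCSF libraries, 2 were among the libraries with markers of hypothalamus or choroid plexus. The difference between the series was not tested.

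**Figure D5:**
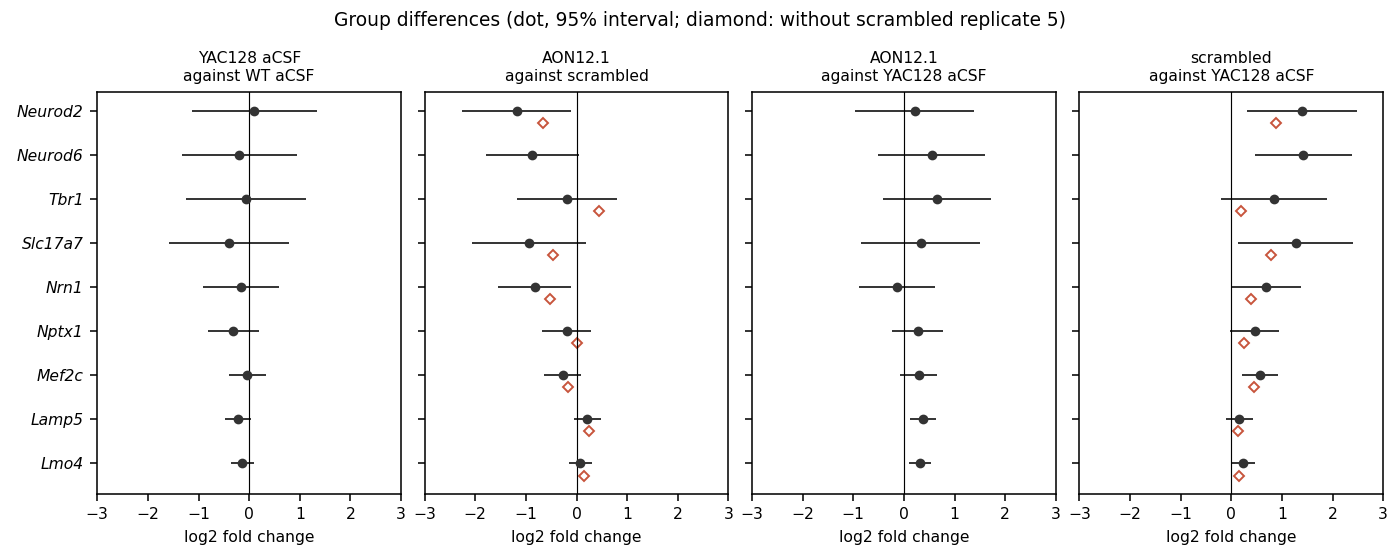
Log2 fold change of the 9 genes in 4 comparisons with 95% confidence intervals, Neurod6 from the fit without the filter; diamonds give the value without scrambled replicate 5 in the comparisons that use it. The intervals of Neurod2, Neurod6, Tbr1 and Slc17a7 are the widest, and those of Lamp5 and Lmo4 the narrowest.

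Striatal genes between groups were fitted with and without Slc17a7 as a covariate. Between YAC128 aCSF and WT aCSF, Penk stood at -0.76 ± 0.16 on the log2 scale (adjusted p = 0.0495) without and -0.77 ± 0.17 (adjusted p = 0.0635) with the covariate. Adora2a, the adenosine receptor of indirect-pathway neurons, had -0.83 ± 0.18 (adjusted p = 0.0495) and -0.84 ± 0.18 (adjusted p = 0.0635). Both adjusted p passed to the other side of 0.05, while the estimates moved by less than their standard errors. Between AON12.1 and aCSF, Tac1, the substance P precursor of direct-pathway neurons, had 0.56 ± 0.14 (adjusted p = 0.0742) and 0.59 ± 0.14 (adjusted p = 0.0507). Over all genes, the covariate took the calls from 8 to 6 for genotype, from 15 to 14 for AON12.1 against scrambled, from 33 to 33 for AON12.1 against aCSF and from 9 to 4 for scrambled against aCSF.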

How the data were processed

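Striatal RNA (100 ng of total RNA per sample) was made into libraries with a modified mcSCRB-seq method (oligo-dT primed, with molecular identifiers), per the labels' protocols. The authors deposited 1 table per sample of raw read counts per Ensembl gene. The submitters' processing notes name FastQC, cutadapt 2.10, STAR 2.7.5a, HTSeq 0.12.4 and GRCm39. Strand setting, annotation and whether molecular identifiers were collapsed are not given in the sources used here. Gene names came from GENCODE M21 by Ensembl ID (52081 of 55415 features, 99.8% of counts). The 5 summary lines of HTSeq were not counted as genes or in library sizes. The no-feature share is the no-feature line as a share of all lines (median 20.6%, ambiguous lines 1.59% on average).

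Counts were fitted with edgeR 4.0.16 (R 4.3.3; TMM, filterByExpr with a minimum count of 10 and total of 15, quasi-likelihood test) over all 32 libraries, and p-values were Benjamini-Hochberg adjusted over all tested genes, with a threshold of 0.05. Standard errors came from the F statistic. For covariate and correlation values, log2 CPM used a prior count of 2. Permutations (100000) reshuffled libraries within groups. The fits were tested on simulated data. Alternatives were DESeq2 1.42.0, voom (limma 3.58.1), no filter, 2 groups only, number series, no-feature share or Slc17a7 as covariates, and leaving out single libraries or, chosen after seeing the data, the 4 or 6 with other regions' markers. The bound of 3 reads set on a count of 0 covers counting error only. The 95% confidence intervals of slopes and fold changes came from the fits and include the spread between libraries. The labels carry no replicate numbers shared between groups; replicates are numbered in accession order. The members and gene lists were chosen with earlier results of these data known. All members are named; of the other lists up to 4 by smallest p in the Slc17a7 fit, plus the 10 genes most like the mean pattern and the most like each member. Other genes named were chosen after their values were seen.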

Additional observations from a re-analysis of the deposited data

Results flagged for a closer look

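In 36 sets of 8 libraries (9 members in 4 groups), 8 held a library whose gap to its neighbour was large for the range of the group. Chance flags about 1 set in 20 if values are normally distributed. CPM values of these genes are skewed to the high side, and on log2 CPM 2 of the 36 sets held such a library, Lmo4 with scrambled replicate 5 and Lmo4 with AON12.1 replicate 7, so the 8 cannot be set against that rate. Scrambled replicate 5 was such a library for Neurod2 (297 CPM, next highest in the group 120.3), Slc17a7 (689 CPM, next 251), Tbr1 (52.5 CPM, next 12.7), Lmo4 (614 CPM, next 451) and Nptx1 (109 CPM, next 63.8). YAC128 aCSF replicate 8 was one for Neurod2 (126 CPM, next 58.8) and Mef2c (236 CPM, next 141). AON12.1 replicate 1 was one for Slc17a7 (355 CPM, next 147). All 8 flags were at the high end, and the members are correlated, so the flags of 1 library are not independent.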

How the results depend on the processing

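The count of called members was 0 in each of the 4 comparisons under DESeq2, voom, no filter, 2 groups only and each covariate. Exceptions were AON12.1 against aCSF within the series beginning 18 (3 members) and scrambled against aCSF with 1 library left out (0 to 1). Genes following Slc17a7 numbered 83 with the no-feature share added and 185 to 601 with 1 library left out. With Neurod6 in place of Slc17a7, 39.0% of the called genes rose. The correlated pairs fell from 31 to 0 within the series beginning 18 (11 libraries), and relations with the no-feature share or total counts from 8 to 0 within each series; fewer samples enter there. Of 348 member fold changes under other settings, 311 kept direction and side of the threshold. A missing adjusted p was counted there as not called. DESeq2 gave none for 7 of 8 members for genotype, 1 for AON12.1 against scrambled and 4 in each of the other 2 comparisons.

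The log2 fold changes that turned in sign were not called in either setting, and the cause was not tested. For genotype, the no-feature share in the fit gave 0.32 for Slc17a7, 0.67 for Tbr1, 0.19 for Mef2c, 0.045 for Nptx1 and 0.26 for Nrn1, and Slc17a7 in the fit gave 0.29 for Tbr1, 0.14 for Mef2c and 0.17 for Nrn1. Neurod2 turned to -1.12 within the series beginning 18, -0.16 in voom and -0.0072 in DESeq2, and within the series beginning 19 Slc17a7 had 0.15 and Tbr1 0.18. For AON12.1 against scrambled, the series beginning 18 gave 0.67 for Neurod2, 0.66 for Slc17a7, 0.90 for Tbr1, 0.20 for Mef2c, 0.29 for Nptx1 and 0.22 for Nrn1. Slc17a7 in the fit gave 0.72 for Tbr1 and 0.15 for Nptx1, and voom 0.051 for Tbr1. For AON12.1 against aCSF, the series beginning 19 gave -0.83 for Neurod2, -0.86 for Slc17a7 and -0.018 for Nptx1, and the series beginning 18 gave 0.55 for Nrn1. Neurod2 there had -0.026 with Slc17a7 in the fit and -0.094 without the 4 libraries with other regions' markers. Without the 6 such libraries Neurod2 had -0.25 and Slc17a7 -0.17. For scrambled against aCSF, Slc17a7 in the fit gave -0.33 for Tbr1, -0.061 for Nptx1 and -0.14 for Nrn1, and the fit without the 6 libraries -0.0048 for Lamp5.

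With 1 library left out, the genotype value ran from -0.62 to 0.48 for Neurod2, -0.53 to 0.23 for Tbr1, -0.21 to 0.045 for Mef2c and -0.36 to 0.0058 for Nrn1. For AON12.1 against scrambled it ran from -0.35 to 0.45 for Tbr1 and -0.30 to 0.011 for Nptx1, and for AON12.1 against aCSF from -0.093 to 0.93 for Neurod2, -0.16 to 0.97 for Slc17a7 and -0.34 to 0.066 for Nrn1. Among correlations, r of Nrn1 within the series beginning 18 was -0.11 with Mef2c, -0.028 with Lmo4 and -0.14 with Lamp5, and r with Lmo4 was -0.040 with the no-feature share removed and -0.0093 to 0.27 with 1 library left out. For total counts, r was 0.028 with Neurod2 and 0.0055 with Lmo4 within the series beginning 19, and -0.24 with Nptx1 within that beginning 18. No paired analysis was possible because the labels carry no replicate numbers shared between groups. Depth limits Neurod6 and Tbr1, with medians of 3 and 7 reads per library.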
